A study of Mus musculus with 2 samples.

Results

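The genes that write and erase DNA methylation were described here by the chromatin accessibility of their loci in mouse haematopoietic stem cells. The 9 genes were the methyltransferases Dnmt1, Dnmt3a and Dnmt3b, the maintenance cofactor Uhrf1, the dioxygenases Tet1, Tet2 and Tet3, and the isocitrate dehydrogenases Idh1 and Idh2. They were chosen by name, from 21853 protein-coding genes of the GENCODE M21 annotation on the mm10 build. Each gene body with 50 kb on either side formed a window. A peak of any of 8 deposited lists was counted when it overlapped a window. The 9 windows summed to 1451 kb, and 61 of the 31532 regions of the main list lay in them.

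DNA methylation is placed on cytosine in CpG dinucleotides. Dnmt3a and Dnmt3b set new methylation, and Dnmt1 copies it to the new strand after replication at hemimethylated sites that Uhrf1 recognises. The TET enzymes oxidise 5-methylcytosine with 2-oxoglutarate as cosubstrate, and base excision repair completes the removal. Idh1 (in the cytosol) and Idh2 (in mitochondria) make 2-oxoglutarate, and mutant forms of either make 2-hydroxyglutarate, which inhibits TET enzymes. In the blood system Dnmt3a, Tet2, Idh1 and Idh2 are known as recurrent mutation targets in clonal haematopoiesis and myeloid leukaemia.

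ATAC-seq was the assay: a transposase cuts and tags DNA where chromatin is open. The series is 1 group of 2 libraries from adult C57BL/6J mice aged 5 to 6 weeks, with no treatment or genetic change given in the labels. The labels number them as biological replicates 1 and 2 but give both the same donor identifier, so that separate animals are not known. A starting quantity of 50000 cells is given for replicate 2 only, sex was not collected, and no sorting markers are named. With 1 group there was no contrast to test, and all values below are descriptions of these 2 libraries.

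The main list is the conservative list, which holds peaks that passed the irreproducible discovery rate (IDR) filter on both libraries. Beside it stood 3 other lists of both libraries (a less strict IDR list, the replicated and the pseudoreplicated lists) and 2 lists of each library (IDR and pseudoreplicated). Overlapping peaks were merged into regions. The main list had 31532 regions, the IDR list of replicate 1 had 34588 and that of replicate 2 had 22434. Read depth is unknown, since the files used here list peaks. The signal of a peak is the authors' value with no stated control or scaling, so signals of the 2 libraries are set side by side and no direction is drawn between them. In the 4 lists of both libraries, all 123 regions of the windows found in 2 or more lists had the same signal, so these lists differ in which peaks they hold.

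The labelled cell type was checked by promoter peaks at marker genes. In the main list 6 of 12 stem cell markers had one, a share near the 51.9% of all protein-coding genes. They included Kit, Cd34, Hlf, Mecom and Meis1, and Ly6a, Slamf1, Procr, Tek, Gata2 and Fgd5 had none. All 12 had one in the replicated list, beside 65.1% of all genes. The IDR list of replicate 1 held one at 4 of the 12 (all genes, 52.2%), and that of replicate 2 at 5 (all genes, 45.8%). Ly6a had none in any list of a single library. No neutrophil or granulocyte marker of 8 had a promoter peak in the main list, against 1 of 4 for B cells (Pax5), 1 of 4 for T cells (Cd3d), 1 of 4 for erythroid cells (Epor) and 3 of 4 for megakaryocytes (Pf4, Gp9 and Itga2b). The IDR list of replicate 1 held promoter peaks at 4 of the 8 granulocyte markers (S100a8, S100a9, Camp and Ltf; all genes, 52.2%), and that of replicate 2 at 0 (all genes, 45.8%). Their part in the results below was not tested.

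A gene had a promoter peak when a summit lay no more than 1 kb from where any of its protein-coding transcripts starts (the transcription start site, TSS). In the main list 7 of the 9 genes had one, beside 51.9% of all protein-coding genes. Dnmt3b and Tet1 were the exceptions. Dnmt3b gained one when the IDR list of both libraries was read, which made 8 of 9 (all genes, 56.4%). Tet1 gained one in the replicated list, where the count was 9 of 9 (all genes, 65.1%). The pseudoreplicated list of both libraries also gave 9 of 9 (all genes, 66.3%). Each library alone gave the same 7 genes in its IDR list, beside 52.2% of all genes for replicate 1 and 45.8% for replicate 2. In the pseudoreplicated lists all 9 genes had a promoter peak in each library, beside 63.5% and 62.0% of all genes.

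Among the genes with a promoter peak in the main list, Idh1 had the highest signal and Dnmt3a the lowest. In falling order the main signals were 13.5 for Idh1, 11.2 for Dnmt1, 10.3 for Idh2, 10.2 for Uhrf1, 8.42 for Tet2, 7.46 for Tet3 and 7.27 for Dnmt3a. The median over all promoter regions of the main list was 9.37. Idh1, Dnmt1, Idh2 and Uhrf1 were therefore above it, and both TET genes and Dnmt3a below it. In the IDR list of replicate 2, with a median of 7.75, Uhrf1 (7.68) was below and Tet2 (8.03) above. In each library Idh1, Dnmt1 and Idh2 held the top 3 places in that order. Tet2 moved between libraries: it was the lowest of the 7 in replicate 1 and the fourth in replicate 2. Neighbours in the order cannot be ranked with 2 libraries, and the gap of Idh2 to Uhrf1 and of Tet3 to Dnmt3a was under 1 unit in each.

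**Figure D1:**
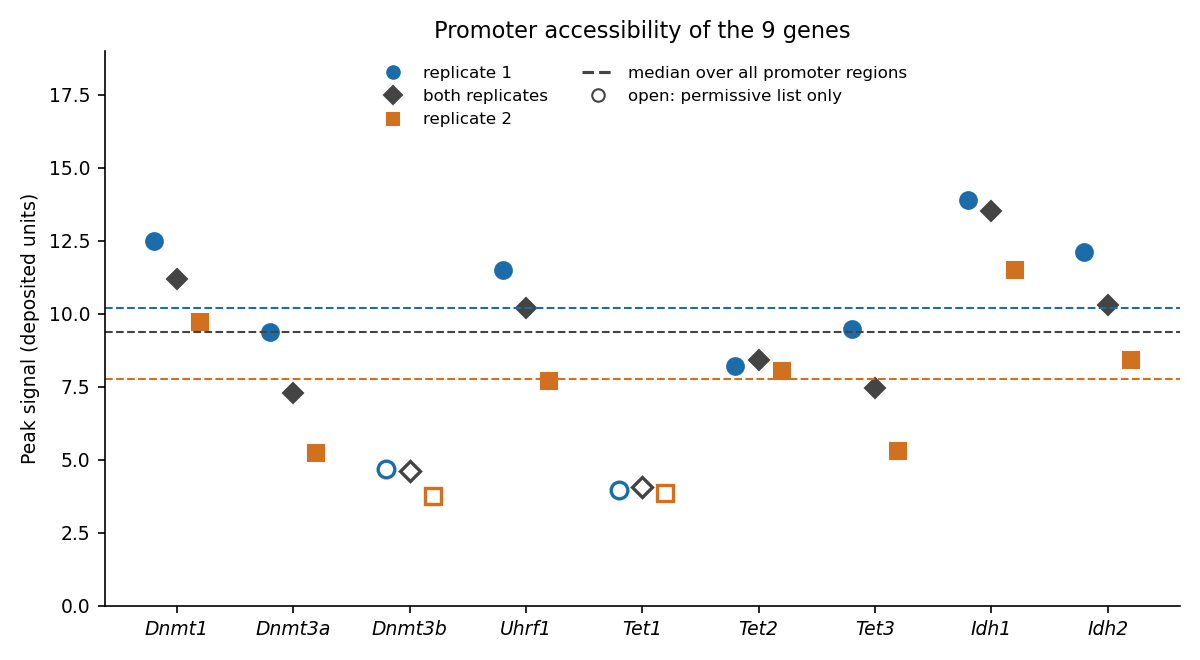
Promoter peak signal of the 9 genes (vertical axis, in the deposited units), for replicate 1 (circles), the lists of both replicates (diamonds) and replicate 2 (squares). Dashed lines are medians over all promoter regions of the main list and of the IDR list of each replicate. Medians of the permissive lists are not drawn. Open symbols are peaks found only in a permissive list, as for Dnmt3b and Tet1, which lay between 3.75 and 4.68 while the other 7 genes lay between 5.23 and 13.9.

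Sequences of the regions that the results turn on are given beside each gene. Each comes from the GRCm38.p6 reference, is written 5′ to 3′ on the strand of the gene it is listed under, and covers up to 100 bp on either side of the summit, less any annotated untranslated region. Capitals mark exact matches, on either strand, to 1 of 14 motifs: ETS CCGGAAGT, PU.1 GAGGAAGT, RUNX TGTGGTT, E-box CAGCTG, for GATA factors AGATAAG, MYC E-box CACGTG, AP-1 TGANTCA, NRF1 GCGCATGC, CRE TGACGTCA, E2F TTTGGCGC, SP1 GGGCGGGG, CCAAT box GCCAATC, YY1 AAGATGGC and the CTCF consensus. The ETS and PU.1 words end in the same letters, GGAAGT, and the NRF1 word overlaps its own reverse complement. A match describes the letters of the reference and is not evidence that a factor was bound.

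Dnmt1, the maintenance methyltransferase, spans 52.7 kb on chromosome 9 (20907209 to 20959888, minus strand). Its promoter region had a signal of 12.5 in replicate 1, 9.70 in replicate 2 and 11.2 in the main list. Its rank was alike in the libraries, above 74.2% of promoter regions in replicate 1 and 76.3% in replicate 2, by their IDR lists. The summit lay 2 bp inside the main start site of the gene. A separate upstream start, that of Dnmt1-202 at 6909 bp, had no peak in any list. The 100 bp on either side of the summit held a pair of overlapping NRF1 matches, in a part that is annotated as untranslated, and 4.14% of all promoter regions held such a match. The stretch just upstream of the start (chr9:20952980-20953077, minus strand) is shown because it adjoins the summit of the maintenance methyltransferase gene's promoter, and it held no match.

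Dnmt1 promoter: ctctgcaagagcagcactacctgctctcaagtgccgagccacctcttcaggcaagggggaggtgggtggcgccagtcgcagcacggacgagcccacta

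Dnmt1 8.7 kb upstream: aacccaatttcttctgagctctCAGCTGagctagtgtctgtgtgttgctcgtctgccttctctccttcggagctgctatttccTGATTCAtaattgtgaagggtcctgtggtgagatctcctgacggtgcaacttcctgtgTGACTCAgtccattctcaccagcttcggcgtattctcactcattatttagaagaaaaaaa

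The second sequence is a distal region between genes, 8.7 kb upstream of the main Dnmt1 start and 1835 bp upstream of that of Dnmt1-202 (chr9:20961623-20961823, minus strand). A distal region is one with its summit over 1 kb from every protein-coding TSS. Its signal was 11.8 in replicate 1, where it was in the IDR list, and 5.10 in replicate 2, where it was in the pseudoreplicated list alone. The main signal was 8.96. It held a pair of AP-1 matches and an E-box, and 10% of all distal regions held an AP-1 match. The other distal region of the Dnmt1 window lay 74.8 kb downstream in a coding exon of Angptl6 and had signals of 11.8 and 5.34 in replicates 1 and 2. Its CpG observed to expected ratio was 0.93, within the middle range of promoter regions.

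Uhrf1, which brings Dnmt1 to hemimethylated DNA, spans 20.2 kb on chromosome 17 (56303321 to 56323486, plus strand). It had 2 promoter regions. The region at the 5′-most start had a signal of 7.39 in replicate 1, 5.64 in replicate 2 and 6.95 in the main list. The region 881 bp downstream, within 111 bp of the start of another Uhrf1 transcript, was higher, at 11.5, 7.68 and 10.2. This order held in both libraries. Both regions held a CCAAT box, which 10.3% of all promoter regions held. The downstream region (chr17:56304102-56304302, plus strand) held a pair of CCAAT boxes with an SP1 match between them, as its sequence shows. It also had the highest CpG ratio of the members' promoter regions in the main list, 1.04. With 250 bp on either side of the summit its ratio was 0.90, and that at the main Tet2 start was higher, 1.02.

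Uhrf1 downstream promoter: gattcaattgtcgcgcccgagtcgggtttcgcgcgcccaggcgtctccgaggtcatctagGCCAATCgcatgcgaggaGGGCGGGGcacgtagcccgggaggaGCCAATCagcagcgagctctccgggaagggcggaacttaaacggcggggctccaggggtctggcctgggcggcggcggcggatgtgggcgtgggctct

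The Uhrf1 window was crowded with other genes. It held 12 regions in the main list, of which 5 were promoter regions of Fem1a, Ticam1, Plin3 (2 regions) and Kdm4b, and 5 were distal. Kdm4b, a histone demethylase gene whose start lies 22.7 kb from that of Uhrf1, had the highest of these promoter signals, 13.0. No distal region lay in the Uhrf1 gene body. The distal region with the highest main signal, 9.85, was in an untranslated region of Ticam1, with 11.1 in replicate 1 and 7.61 in replicate 2. In replicate 1 a region in an intron of Kdm4b, 54.4 kb downstream, was higher, with 12.8 and 5.14, in the pseudoreplicated list, in replicate 2. A region upstream of Uhrf1 in an intergenic stretch, 39.1 kb away, held a CTCF match and had signals of 8.79 and 6.08.

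Dnmt3a had the most distal regions in its window of the 9 genes, by number and per 100 kb. This de novo methyltransferase gene spans 108 kb on chromosome 12 (3806007 to 3914443, plus strand). Its window held 12 regions in the main list, of which 11 were distal, 1 was its promoter region and none was a neighbour's promoter. The median protein-coding gene had 1 distal region in its window, and 99.7% of genes had fewer than Dnmt3a. The window is longer than the median of 117 kb, and per 100 kb it held 5.28 distal regions against a median of 0.928, above 98.4% of genes. Uhrf1 (4.16 per 100 kb) and Idh2 (4.15) were next, above 95.3% and 95.2% of genes. In the Dnmt3a gene body itself there were 5, more than in 98.3% of genes, a count not adjusted for gene length. All 11 distal regions of the Dnmt3a window were in the IDR list of replicate 1 and 10 were in that of replicate 2.

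The Dnmt3a promoter had a signal of 9.36 in replicate 1, 5.23 in replicate 2 and 7.27 in the main list, within the range of the 11 distal signals of each. Its rank differed between libraries, above 40.3% of promoter regions in replicate 1 and 10.3% in replicate 2. The summit lay 134 bp upstream of the first start of the main group, in a GC-rich stretch (74.6% GC) with no motif match (chr12:3806293-3806493, plus strand). Of 7 groups of start sites, 3 had a peak within 1 kb in the replicated list. These were the main group, Dnmt3a-208 at 54.0 kb with a signal of 4.20, and Dnmt3a-205 with Dnmt3a-203 at 84.7 kb with 3.72. Near the last pair the main list also held a peak with a signal of 2.22, which was merged into a stronger intronic region 1159 bp beyond the start of Dnmt3a-203 (signal 6.58).

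The strongest distal region of all 9 windows in the main list lay between Dtnb and Dnmt3a, 15.1 kb upstream of the main Dnmt3a start (chr12:3791863-3792063, plus strand). Its signal was 16.5 in replicate 1, 9.84 in replicate 2 and 13.6 in the main list, above 96.9% of distal regions. It was also higher than the Dnmt3a promoter in each library. Its CpG ratio was 0.72, within the middle range of promoter regions, and it held no match to any motif searched.

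Dnmt3a promoter: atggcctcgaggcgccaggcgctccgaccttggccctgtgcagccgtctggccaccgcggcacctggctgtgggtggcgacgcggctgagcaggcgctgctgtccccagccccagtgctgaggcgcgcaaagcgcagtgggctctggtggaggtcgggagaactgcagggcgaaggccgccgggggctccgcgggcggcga

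Dnmt3a 15.1 kb upstream: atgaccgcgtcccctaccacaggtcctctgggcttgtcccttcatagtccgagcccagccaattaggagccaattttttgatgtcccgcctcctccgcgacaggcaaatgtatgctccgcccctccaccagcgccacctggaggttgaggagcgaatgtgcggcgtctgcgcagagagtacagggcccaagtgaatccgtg

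Dnmt3a intron, 27.6 kb downstream: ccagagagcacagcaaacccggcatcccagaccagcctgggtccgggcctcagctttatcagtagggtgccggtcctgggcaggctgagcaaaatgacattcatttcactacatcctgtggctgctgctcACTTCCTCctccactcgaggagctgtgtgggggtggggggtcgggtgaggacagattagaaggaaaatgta

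Dnmt3a 119.3 kb downstream: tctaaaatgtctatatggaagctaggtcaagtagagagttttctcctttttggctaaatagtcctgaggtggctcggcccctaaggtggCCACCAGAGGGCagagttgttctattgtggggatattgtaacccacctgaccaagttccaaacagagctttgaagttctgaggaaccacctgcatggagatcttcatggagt

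Further upstream, 3 regions lay in Dtnb, the gene before Dnmt3a. The region 47.4 kb from the Dnmt3a start, in an intron, had signals of 11.9 in replicate 1 and 8.68 in replicate 2. The region 25.4 kb away, in an untranslated region, had 13.6 and 7.34. A weaker intronic region between them, 26.6 kb away, had 5.99 and 5.04. The 5 regions inside Dnmt3a were all intronic. They lay 27.6, 48.9, 61.8, 64.2 and 85.9 kb from the main start, with main signals of 8.77, 9.61, 5.73, 8.30 and 6.58. The region at 48.9 kb was the strongest of them, with 10.2 in replicate 1 and 8.95 in replicate 2, and its summit window was nearly free of CpG (ratio 0.06). The region at 27.6 kb (chr12:3834487-3834687, plus strand), with 10.1 and 6.46, held a PU.1 match. PU.1 is a myeloid and lymphoid ETS factor, and 10.4% of all distal regions held this match.

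Downstream of Dnmt3a there were 2 regions. The region 119.3 kb from the start (chr12:3926212-3926412, plus strand) held a CTCF match, as 9.12% of distal regions did. Its signal was 7.57 in replicate 1, and in replicate 2 it was found in the pseudoreplicated list alone, with 5.13. The region 153.0 kb from the start was in a coding exon of Pomc, with signals of 10.7 and 6.55, and held an ETS match at a CpG ratio of 0.81. The start of Pomc itself had no promoter peak in any list. A distal region cannot be assigned to a gene from its position, so those in Dtnb and Pomc are counted here by window alone.

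**Figure D2:**
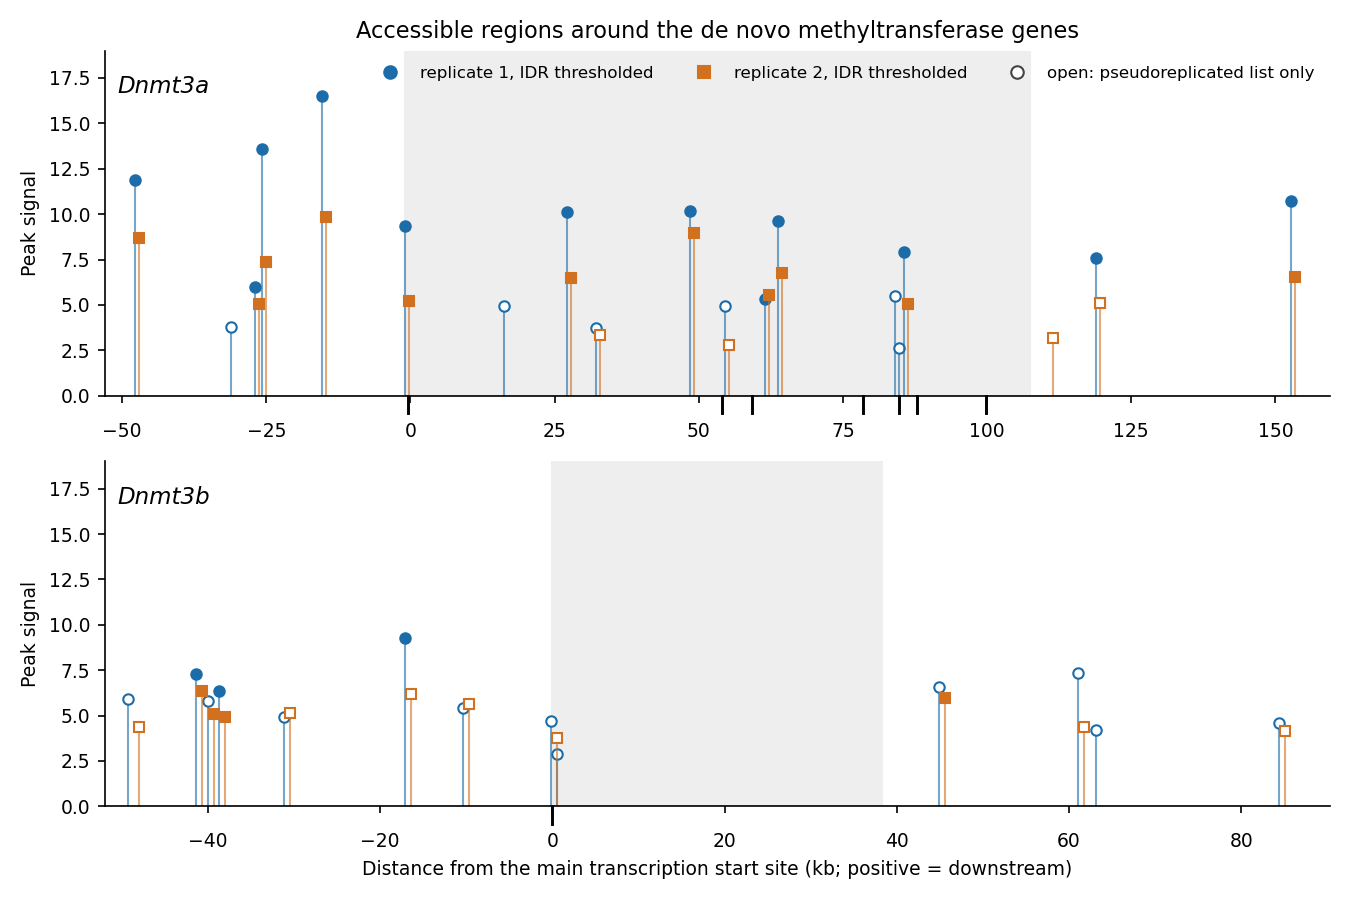
Regions in the windows of Dnmt3a and Dnmt3b by distance from the main start site (horizontal axis, kb) and peak signal (vertical axis, deposited units), for replicate 1 (circles) and replicate 2 (squares, drawn slightly to the right). Grey is the gene body, ticks under the axis are start sites and open symbols are peaks in the pseudoreplicated list alone. Dnmt3a shows filled symbols on both sides and within the gene body, and Dnmt3b shows only open symbols at its start.

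Dnmt3b, the other de novo methyltransferase, spans 38.3 kb on chromosome 2 (153649450 to 153687730, plus strand). All of its 10 protein-coding transcripts start within 1 group at the 5′ end. The promoter peak had a signal of 4.68 in replicate 1 and 3.75 in replicate 2, both in the pseudoreplicated lists only. In the IDR list of both libraries its signal was 4.60, above 6.81% of promoter regions of that list. The summit window was rich in CpG, with a ratio of 1.26 and 76.6% GC. In the IDR list of replicate 1 the Dnmt3b window held 3 regions, and 4 in that of replicate 2.

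Of the 3 distal regions of Dnmt3b in the main list, all lay between 38.4 and 41.1 kb upstream and beyond the neighbour Commd7, whose promoter region had a signal of 8.49. The strongest, 41.1 kb upstream (chr2:153608269-153608469, plus strand), had 7.31 in replicate 1 and 6.35 in replicate 2. It held a pair of RUNX matches and a PU.1 match. RUNX factors act in blood stem cell formation, and 13.8% of all distal regions held a RUNX match. Dnmt3c, a rodent de novo methyltransferase gene whose start lies 47.2 kb from that of Dnmt3b, had no promoter peak in any list.

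Dnmt3b 41.1 kb upstream: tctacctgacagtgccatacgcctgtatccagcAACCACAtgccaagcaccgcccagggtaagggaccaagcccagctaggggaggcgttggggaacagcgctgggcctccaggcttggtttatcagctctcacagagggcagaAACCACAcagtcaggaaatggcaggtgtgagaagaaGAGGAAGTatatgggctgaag

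In the main list Tet2 and Tet3 had lower promoter signals than Dnmt1 and Uhrf1 and Tet1 had no promoter peak, though in replicate 2 Tet2 (8.03) was above Uhrf1 (7.68). Tet1 had the weakest promoter of the 9 genes in the lists called on both libraries together. In the pseudoreplicated list of replicate 2 Dnmt3b (3.75) was below Tet1 (3.85). Tet1 spans 104 kb on chromosome 10 (62804570 to 62908996, minus strand) and has start sites in 6 groups. The main start, that of Tet1-206, had no peak within 1 kb in any list, and neither had the 5′-most start, that of Tet1-208. The highest promoter signal was at Tet1-210 and Tet1-207, transcripts whose group of starts begins 11.6 kb downstream of the main start. It was 3.95 in replicate 1 and 3.85 in replicate 2, both in the pseudoreplicated lists, and 4.05 in the replicated list. At Tet1-209 a signal of 3.74 was found in replicate 2 and none in replicate 1. The sequence at the first of these (chr10:62886858-62887058, minus strand) is shown because it is where the gene was most open among its starts. Its CpG ratio was 0.88.

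Tet1 internal start: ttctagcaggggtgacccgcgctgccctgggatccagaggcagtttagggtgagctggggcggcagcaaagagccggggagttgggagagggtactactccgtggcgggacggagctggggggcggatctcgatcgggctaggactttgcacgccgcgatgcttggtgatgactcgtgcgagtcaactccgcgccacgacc

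Inside Tet1 the main list held 3 distal regions, all intronic. The median over all genes was 0 distal regions in the gene body, a count not adjusted for gene length. Per 100 kb the Tet1 window held 1.47 distal regions, above 61.3% of genes. The region 33.6 kb from the main start had signals of 7.26 in replicate 1 and 7.11 in replicate 2, the only 1 of the 3 in both IDR lists. The region 7.9 kb from the start, 1762 bp from the nearest Tet1 start, had 8.04 in replicate 1 and 5.36 in the pseudoreplicated list of replicate 2. The region at 35.3 kb had 5.35 and 5.17. These intronic signals were above the promoter signal in both libraries, and none of the 3 regions held a motif match. The neighbours of Tet1 were open, with promoter signals of 16.5 at Ccar1, 11.0 at Slc25a16 and 6.84 at Dna2.

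Tet2, whose loss is common in clonal haematopoiesis, spans 81.5 kb on chromosome 3 (133463679 to 133545139, minus strand). Its main start had a promoter signal of 8.20 in replicate 1, 8.03 in replicate 2 and 8.42 in the main list. The libraries gave nearly the same value, but the rank was above 28.4% of promoter regions in replicate 1 and 54.5% in replicate 2. Another region 736 bp upstream, at the start of Tet2-205, had 5.85, 5.51 and 5.74. The region at the main start held a YY1 match, as 3.84% of promoter regions did, and the upstream region held an SP1 and a MYC E-box match.

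The Tet2 window was the sparsest of the TET windows, with 3 regions in the main list and 1 distal region. That region lay between genes 38.9 kb upstream (chr3:133583196-133583396, minus strand) and had a signal of 10.2 in replicate 1. In replicate 2 it was in the pseudoreplicated list alone, with 5.26. It held a pair of RUNX matches, on opposite strands and in an AT-rich stretch (39.3% GC). No distal region of the main list lay in the Tet2 body. The IDR list of both libraries added 4 distal regions. The highest lay 107.7 kb downstream of the main start and had a signal of 12.3 in replicate 1, above 87.2% of its distal regions, with no peak in any list of replicate 2.

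Tet2 38.9 kb upstream: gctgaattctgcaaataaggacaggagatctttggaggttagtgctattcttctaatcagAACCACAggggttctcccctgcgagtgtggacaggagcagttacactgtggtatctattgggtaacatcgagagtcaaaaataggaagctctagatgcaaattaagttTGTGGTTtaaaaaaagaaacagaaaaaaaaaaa

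Tet3 was open at an internal start. It spans 96.7 kb on chromosome 6 (83362373 to 83459084, minus strand) and has 3 start sites. The start of Tet3-202, 14.7 kb downstream of the main start, had a signal of 9.49 in replicate 1, 5.31 in replicate 2 and 7.46 in the main list. The main start, that of Tet3-203, had 4.89 in replicate 1 and 3.02 in replicate 2, where it was in the pseudoreplicated list alone. In the IDR list of both libraries its signal was 3.81. The start of Tet3-204, 2692 bp further upstream, had no peak in any list. In both libraries the internal start was therefore the more open. Its sequence (chr6:83441676-83441798, minus strand) held a CCAAT box, written here as its reverse complement, in the most GC-rich of the members' promoter regions (77.1% GC).

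Tet3 internal promoter: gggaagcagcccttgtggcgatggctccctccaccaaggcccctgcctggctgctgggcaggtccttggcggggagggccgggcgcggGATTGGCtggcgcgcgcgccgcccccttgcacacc

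The Tet3 window held 10 regions in the main list, with 4 promoter regions of Mthfd2, Mob1a, Bola3 and Dguok and 5 distal regions. The strongest distal region was in an intron of Tet3, 74.5 kb from the main start, with signals of 11.1 in replicate 1 and 8.68 in replicate 2. It was above 82.7% of distal regions of the main list, and in each library it exceeded every Tet3 promoter peak. The region 17043 bp upstream had 10.1 in replicate 1 and, in the pseudoreplicated list only, 5.53 in replicate 2. The region 26.2 kb upstream, in an intron of Dguok, had 9.39 and 6.53. A region in an intron of Bola3 held a CTCF and a GATA match and was in the IDR list of neither library, with 6.91 and 4.68 in the pseudoreplicated lists.

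**Figure D3:**
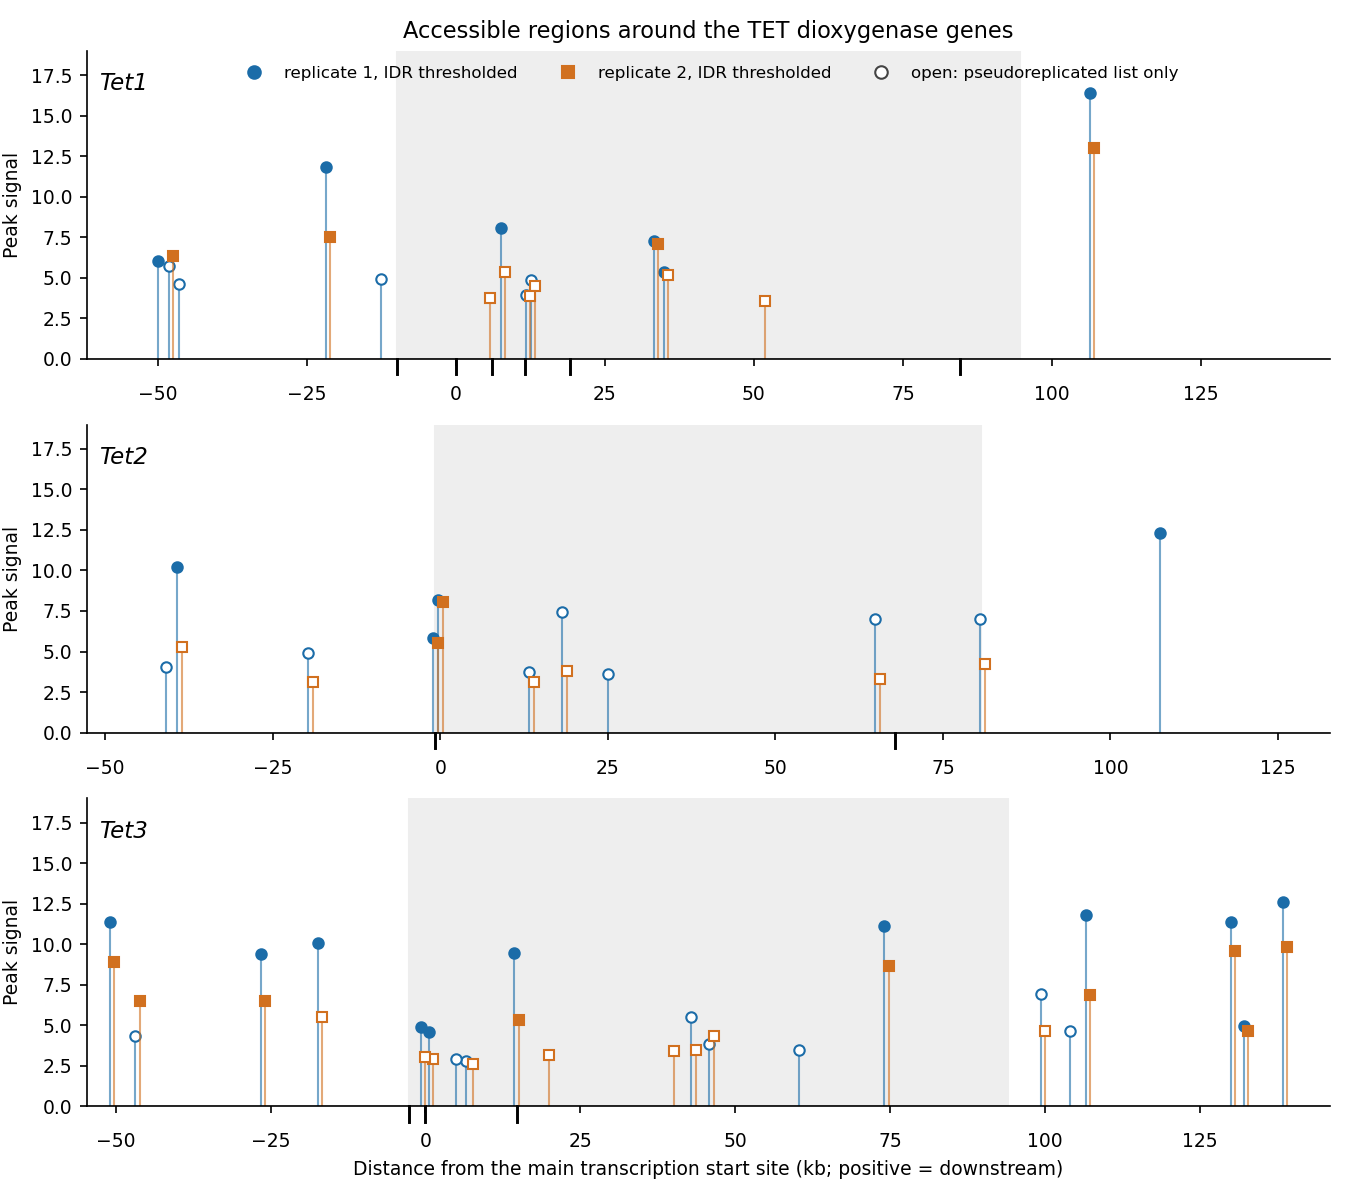
Regions in the windows of Tet1, Tet2 and Tet3, with axes and symbols as in the map of the de novo methyltransferase genes. Tet1 has only open symbols within 1 kb of its starts, and a filled symbol of replicate 1 between starts, 7.9 kb from the main start. Tet2 has filled symbols of both replicates at its main start. Tet3 has its highest filled promoter symbols at the start 14.7 kb downstream of the main start.

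Idh1 had the most accessible promoter of the 9 genes. It spans 27.9 kb on chromosome 1 (65158616 to 65186500, minus strand). The promoter signal was 13.9 in replicate 1, 11.5 in replicate 2 and 13.5 in the main list, above 89.5% of promoter regions. The summit lay 183 bp upstream of the start of Idh1-203. It also lay 40 bp upstream of the start of Pikfyve, a lipid kinase gene that is transcribed the other way, so that the signal cannot be divided between the genes. The sequence between the starts (chr1:65186562-65186688, minus strand) had a CpG ratio of 0.98 around the summit and held no motif match. A further promoter region, at a start 7.3 kb inside the gene, had 10.4, 8.47 and 9.92, with its summit 759 bp past that start. Its CpG ratio of 0.34 was the lowest of the 10 promoter regions. The Idh1 window had no distal region in the main list.

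Idh1 and Pikfyve promoter: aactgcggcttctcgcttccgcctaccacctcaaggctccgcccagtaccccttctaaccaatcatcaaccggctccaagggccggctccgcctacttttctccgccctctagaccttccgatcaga

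Idh2 40.4 kb downstream: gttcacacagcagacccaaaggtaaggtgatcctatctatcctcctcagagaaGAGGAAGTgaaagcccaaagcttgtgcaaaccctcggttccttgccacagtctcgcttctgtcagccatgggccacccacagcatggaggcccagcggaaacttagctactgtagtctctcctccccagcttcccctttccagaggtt

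Idh2 spans 20.5 kb on chromosome 7 (80094846 to 80115392, minus strand). Its promoter had a signal of 12.1 in replicate 1, 8.42 in replicate 2 and 10.3 in the main list. The summit lay 6 bp upstream of the main start, and the sequence around it held no motif match. The main list held 1 promoter region of Idh2, and the IDR list of both libraries held 2. The window held 5 distal regions in the main list and no neighbour's promoter region. Of these, 3 lay in introns of Zfp710 downstream of Idh2 and 2 lay between genes upstream. The region 28.1 kb upstream had the highest main signal, 7.80, with 9.48 in replicate 1 and 5.25 in replicate 2. The region 17.3 kb upstream held a CTCF match and had a main signal of 7.03, with 7.89 and, in the pseudoreplicated list, 4.35. The region 40.4 kb downstream (chr7:80074895-80075095, minus strand) held a PU.1 match and had 8.85 and 5.49. The order differed in replicate 2, where a region 36.3 kb downstream was the highest at 5.70. A PU.1 match was also found 56.0 kb downstream, so 2 of the 4 distal PU.1 matches of all windows were near Idh2 and within Zfp710.

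Over all windows the main list held 61 regions. Of these, 10 were promoter regions of the 9 genes, 16 were promoter regions of neighbours and 35 were distal, beside 64.4% of all regions of the list. The distal regions lay in introns (20), between genes (11) and in exons or untranslated regions (4), and 9 of them lay in the body of a member. Their main signal ran from 5.09 to 13.6 with a median of 7.47, beside 7.96 for all distal regions. Dnmt3a alone held 11 of the 35, followed by Uhrf1, Tet3 and Idh2 with 5 each, Dnmt3b and Tet1 with 3 each, Dnmt1 with 2, Tet2 with 1 and Idh1 with 0. The 90th percentile of all genes was 5. These counts are not adjusted for window length. Per 100 kb Dnmt3a held 5.28, Uhrf1 4.16 and Idh2 4.15.

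**Figure D4:**
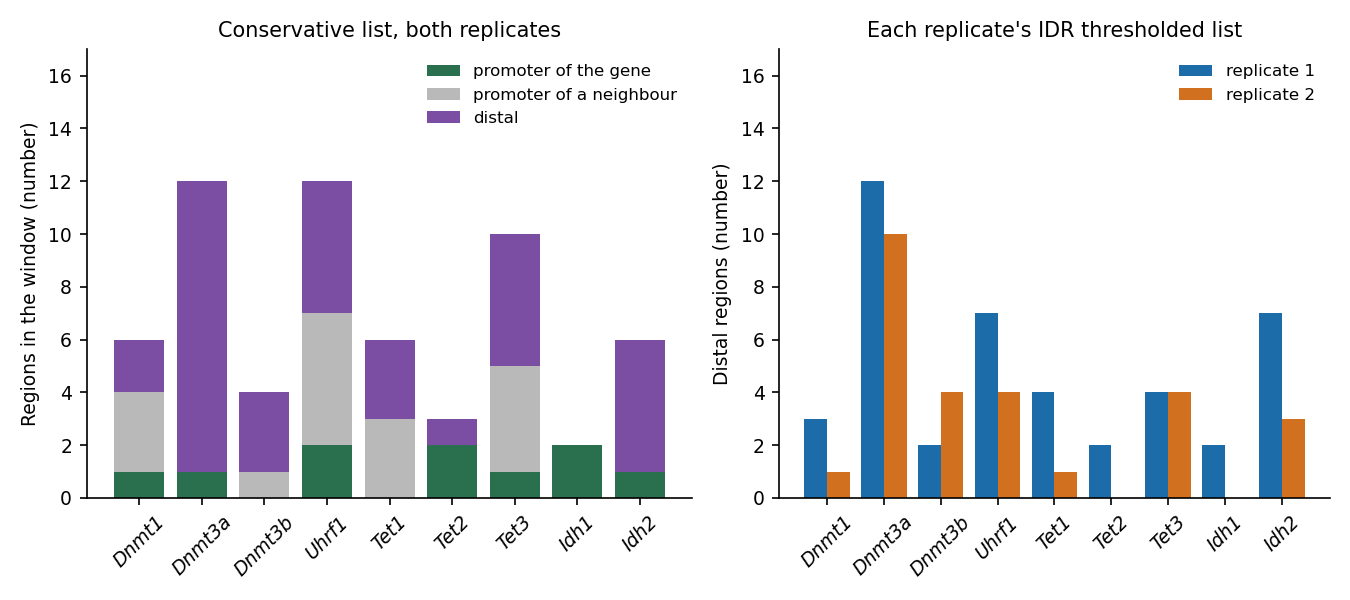
Number of regions in each gene's window (vertical axes) in the conservative list by class (left, stacked bars) and of distal regions in the IDR thresholded list of each replicate (right). Dnmt3a has 11 distal regions on the left, and on the right 12 in replicate 1, of which a pair falls within 1 of the 11, and 10 in replicate 2, the highest of the 9 genes in each.

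All 10 promoter regions of the 9 genes in the main list were in the IDR list of each library. Of the 16 promoter regions of neighbours 15 were in that of replicate 1 (93.8%) and 14 in that of replicate 2 (87.5%). The shares of all promoter regions in these lists were not computed, so neither count is read as a trait of these genes. Of the 35 distal regions 33 were in the IDR list of replicate 1 (94.3%, beside 79.6% of all distal regions) and 25 in that of replicate 2 (71.4%, beside 55.8%). In both IDR lists there were 10 of 10 members' promoter regions, 13 of 16 neighbours' promoter regions and 24 of 35 distal regions, and the difference between these classes was not tested. All 35 distal regions were in some list of replicate 2. That share was not computed over all distal regions of the main list, so it is not read as a trait of these windows. Seen from the libraries' own lists, 49 of the 72 regions of replicate 1 in the windows overlapped one of replicate 2. That is 68.1% (95% Wilson interval 56.6 to 77.7), beside 56.5% of all regions. Of the 53 regions of replicate 2, 49 overlapped one of replicate 1, or 92.5% (82.1 to 97.0), beside 87.5%. The intervals cover counting error only, and regions are not replicates.

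The IDR list of replicate 1 held 6 regions that no list of replicate 2 held, and 0 were found the other way. The same counts over all regions were not made, so these are not read as a trait of the windows. In the pseudoreplicated lists alone each library had regions that the other lacked, as at Tet1-209 (3.74 in replicate 2). Of the 6, after the region 107.7 kb downstream of the Tet2 start, the highest was 39.5 kb upstream of Idh2, with a signal of 9.45 and a PU.1 match. The other 4 had signals from 5.37 to 7.19: a pair near each other in the Idh1 window, in introns of D630023F18Rik and Gm28845 (7.19 and 5.97), a region in an intron of Dna2 in the Tet1 window (6.05) and a coding exon of Plin3 in the Uhrf1 window (5.37). The same library had the promoter peaks at 4 of 8 granulocyte markers and the larger list. Whether these 6 regions come from other cells in that library was not tested.

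The 10 promoter regions had a median GC content of 63.7% (range 55.7 to 77.1), beside 64.2% for all promoter regions. Their CpG observed to expected ratio had a median of 0.71, beside 0.79, with all promoter regions between 0.60 and 0.93 in their middle 50%. Below that range were Idh2 (0.54), Dnmt1 (0.50) and the internal Idh1 region (0.34). These places depend on the sequence window. With 250 bp on either side of the summit Idh2 was 0.69 and Dnmt1 0.65. The internal Idh1 region was then 0.44, and the region at the 5′-most Uhrf1 start fell from 0.60 to 0.49. The range over all promoter regions was not computed at that width. The 35 distal regions had a median GC content of 56.2% (range 39.3 to 70.1), beside 51.7% for all distal regions, and a median ratio of 0.27, beside 0.26. The distal regions in a coding exon of Angptl6 (0.93), in a coding exon of Pomc (0.81) and 15.1 kb upstream of Dnmt3a (0.72) were the highest.

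**Figure D5:**
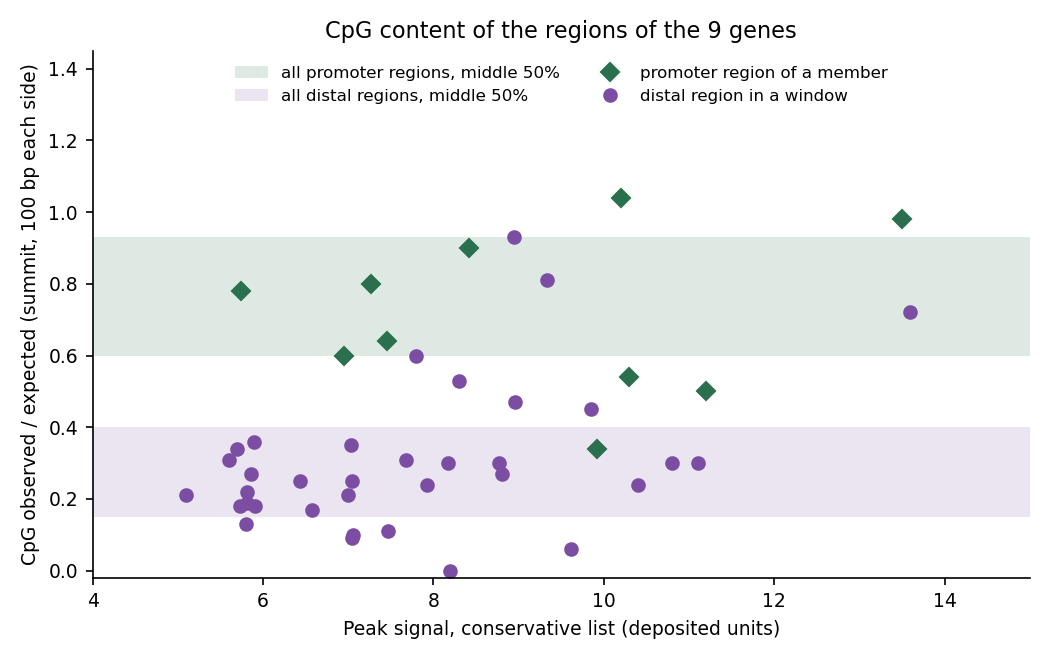
CpG observed to expected ratio in the 100 bp on either side of the summit (vertical axis) against main peak signal (horizontal axis, deposited units) for the 10 promoter regions and 35 distal regions of the windows, with bands for the middle 50% of all promoter and distal regions. The distal region at the far right, with a signal of 13.6, is the one 15.1 kb upstream of Dnmt3a, and it lies in the promoter band.

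Motif matches were few in each gene and their shares are given as counts. Among the 10 promoter regions 3 held a CCAAT box (all promoter regions, 10.3%), 2 held SP1 (26.8%), and none held ETS (7.39%) or CRE (3.42%). The CCAAT boxes were in both Uhrf1 regions and at the internal Tet3 start. Among the 35 distal regions 9 held an E-box (25.7%, beside 18.0%), 5 a CTCF match (14.3%, beside 9.12%), 4 a PU.1 match (11.4%, beside 10.4%), 3 a RUNX match (8.57%, beside 13.8%) and 1 a GATA match (2.86%, beside 3.71%). With so few regions none of these shares was tested.

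Most other genes of the pathway had an open promoter. Of 40 genes in 6 lists, 34 had one in the main list (85.0%), 35 by the IDR list of replicate 1, 34 by that of replicate 2. Over all protein-coding genes these lists gave 51.9%, 52.2% and 45.8%. In the replicated list all 40 had one (all genes, 65.1%). All 9 base excision genes had one, with Xrcc1, a repair scaffold, highest at 15.7. All 6 genes of 2-oxoglutarate and 2-hydroxyglutarate metabolism had one, with Idh3a, a subunit of the NAD-dependent isocitrate dehydrogenase, highest at 15.4. All 6 genes of methyl donor supply had one, with Mtr, methionine synthase, highest at 13.4. Of 8 readers of methylated CpG 7 had one, and Zbtb4 was missing.

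All other gaps lay among the cofactors of methylation and the partners of TET enzymes. Of the 7 genes listed as cofactors of methylation 4 had a promoter peak, with Pcna, the replication clamp, highest at 11.6. The 4 include Trdmt1 (10.7), which is a tRNA methyltransferase gene and no such cofactor. Dnmt3l, an inactive cofactor of the de novo enzymes, was missing in the main list and had a signal of 9.50 in the IDR list of replicate 1 and none in replicate 2. Cdca7, a partner of the remodeller Hells, had 9.11 in replicate 1 and 4.06 in the pseudoreplicated list of replicate 2. Dppa3, a factor of oocytes and early embryos, had 8.63 in the pseudoreplicated list of replicate 1 alone. Of 4 TET partners Ogt, the O-GlcNAc transferase, had 16.3 and Cxxc5 had 5.33. Cxxc4 had 4.81 in the pseudoreplicated list of replicate 1 alone, and Wt1 had 2.91 and 2.70 in the pseudoreplicated lists.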

How the data were processed

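Peak lists on mm10 were deposited by the authors for 2 ATAC-seq libraries of haematopoietic stem cells, per the labels and the deposited notes. Each peak carries a signal made by the authors. How it was scaled, which aligner and peak caller were used and whether the transposase offset was corrected is not given in the sources used here. The conservative IDR list was the main list, and 7 others were used beside it. Ranked lists were not used.

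Overlapping peaks of a list were merged, and the peak of highest signal gave the region its summit and signal. Genes and transcripts came from GENCODE M21, and sequence from GRCm38.p6, where all main summits fell on called bases. Promoter peaks had a summit within 1000 bp of a protein-coding TSS, and other regions were distal. A rank is the share of promoter or distal regions of the same list with a lower signal. Motifs, GC content and the CpG observed to expected ratio used the summit and 100 bp on either side. Python 3.11.15 with numpy 2.4.6, pandas 2.3.3, scipy 1.17.1, pysam 0.24.0 and matplotlib 3.10.9 was used, and 7 steps were tested on simulated data with known answers.

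The 9 genes, pathway lists and markers were chosen with earlier results of these data known. Named were all 9 genes and every promoter region of each in the main list. Of their promoter regions found in other lists alone, not all were named. Also named were the 3 strongest distal regions per window, regions of 1 library alone and neighbours with a promoter peak in the main list. Of each pathway list, the highest gene and those with no main promoter peak were named. A few genes are not reported here. Other regions and genes, among them Angptl6, Dnmt3c, Pomc, Cxxc5 and further distal regions of Dnmt3a and Idh2, were named after their values were seen. Alternatives were the other lists, each library alone, signal above the median, other promoter and window sizes, the 5′-most TSS, other overlap rules and a wider sequence window.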

Additional observations from a re-analysis of the deposited data

How the results depend on the processing

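The number of members with a promoter peak, 7, stayed within 5 to 9 in the alternatives tried. It was 5 with signal above the list's median of 8.33, and 5 with the 5′-most start only. It was 8 with promoters of 2500 bp on either side, and 7 with 500 bp, with any base of a region counted, or with transcripts of known start only, an alternative chosen after seeing the data. Each library alone gave 7.

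The number of regions depends on the list. The 61 regions became 123 in the replicated and 143 in the pseudoreplicated list, 28 with signal above the median, and 38 with windows of 20 kb, and were 53 to 72 with 1 library left out. The 35 distal regions became 55 in the IDR, 84 in the replicated and 102 in the pseudoreplicated list, 11 with signal above the median, 19 with windows of 20 kb and 53 with 100 kb, and were 27 to 43 with 1 library left out. Against the other library's pseudoreplicated list, 91.7% of the regions of replicate 1 and 100% of those of replicate 2 were shared. The same shares over all regions were not computed. The count of 34 pathway genes was 34 to 35 with 1 library left out. The order of the promoter signals was not kept: in the IDR list of replicate 2 Uhrf1 lay below the promoter median of 7.75 (7.68) and Tet2 lay above it (8.03). In the replicated list, with a median of 7.05, Tet3 (7.46) and Dnmt3a (7.27) were also above it. Of single-gene and single-list values, 7 were labelled as moved and 68 were not. The 68 include 7 promoter signals in each of the 3 other lists of both libraries, which share their signals and could not differ. The label did not follow the size of a change. Dnmt3a (main 7.27, libraries 9.36 and 5.23) was not labelled as moved, and Tet2 (main 8.42, libraries 8.20 and 8.03) was. The tally is therefore no measure of stability. No paired analysis was possible because the series has 1 group. Depth is unknown, so a missing peak does not show closed DNA, and 2 libraries of 1 donor identifier give no estimate of spread between animals.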

Other observations

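The windows held the starts of 24 other protein-coding genes. Of these, 16 had a promoter peak in the main list (Pikfyve by the peak it shares with Idh1), beside 51.9% of all protein-coding genes. They included genes of one-carbon metabolism and nucleotide supply beside Tet3, namely Mthfd2 (signal 12.4), a mitochondrial folate enzyme, and Dguok (10.5), a mitochondrial deoxyguanosine kinase. Near Dnmt1 they were Mrpl4 (11.6), Ppan (10.4) and S1pr2 (7.56), of which S1pr2 was in the IDR list of replicate 1 with 8.15 and in the pseudoreplicated list of replicate 2 with 5.57. Eif3g, a translation initiation factor gene in the same window, had a promoter signal of 9.26 in replicate 1 and 3.55 in the pseudoreplicated list of replicate 2, and was missing from the main list. Arrdc5, whose start lies 3.0 kb from that of Uhrf1, had no promoter peak in any list.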
